A study of Mus musculus with 8 samples.

Results

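MHC class II positive microglia are the brain's resident macrophages that carried transcripts of the antigen-presenting class II molecules. Among 50254 cells kept from mouse cortex (at least 500 genes and under 15% of counts from mitochondrial genes), 7484 passed a microglial gate and 73 of these were MHC class II positive. The gate worked on counts of unique molecular identifiers (UMIs, 1 per captured transcript) per 10000 UMIs of a cell (CP10k). It asked for at least 60 CP10k of C1qa, C1qb and Ctss together and at least 10 CP10k of P2ry12, Tmem119 and Cx3cr1. It allowed under 20 CP10k of the perivascular macrophage genes Mrc1, Pf4 and Lyz2 and under 20 CP10k of the endothelial genes Cldn5, Flt1 and Pecam1. The members had in addition at least 20 CP10k of Cd74, H2-Aa, H2-Ab1 and H2-Eb1 together. These 16 genes chose the cells, so their levels are given only as a description.

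The study took the cortical plate of mice aged 8 weeks, perfused with PBS, in 4 groups, each made from the pooled brains of 3 mice. One group was Lama4-/-, which lacks the laminin alpha 4 chain of vessel basement membranes, and a WT group served as its control. Another was Tek-Cre:Lama5-/-, in which Cre under the endothelial-lineage promoter Tek removes the laminin alpha 5 chain, with a WT control of its own. Tek is also active in part of the blood lineage, so the driver does not confine the deletion to vessels. Tissue of all groups was digested with papain, DNase and Liberase, cleared of myelin and run on droplets with a 3′ kit. Each group was labelled with 2 samples. Both Lama4-/- samples held identical matrices and were counted as 1 library, which left 7 libraries. The series text speaks of pooling per group and does not say whether the libraries of a group are loadings of 1 pool. If they are, their spread is technical. A state of 1 of the 3 mice cannot be told apart from a state of all of them.

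Class II molecules are heterodimers (H2-Aa with H2-Ab1, H2-Ea with H2-Eb1) that display peptides to CD4+ T cells. Cd74, the invariant chain, fills the groove until H2-DM exchanges its remnant for a peptide, and H2-O restrains H2-DM. Ciita is the master coactivator of class II genes, Nlrc5 plays that part for class I genes, and interferon gamma is the classic inducer of both. Resting microglia of the healthy adult brain express little class II, and raised class II is known from infection, demyelination, ageing and exposure to T cell cytokines.

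The promoters of H2-Aa, H2-Eb1, H2-DMb1, Gbp2 and Irf1 are shown because the results below turn on class II genes (the first 3) and on genes induced by interferon. Each run is the 150 bases before the start site, 5′ to 3′ on the gene's strand, from RefSeq on GRCm38.p6. Capitals mark a match to GATTGG (the core of the Y box of class II promoters), GAAANNGAAA (an interferon response element) or TTCNNNGAA (the GAS element, named for interferon gamma activated sites), searched on both strands. The windows lay at chr17:34287824-34287973 on the minus strand (H2-Aa), chr17:34305717-34305866 (H2-Eb1), chr17:34153041-34153190 (H2-DMb1), chr3:142620513-142620662 (Gbp2) and chr11:53769864-53770013 (Irf1), the last 4 on the plus strand.
H2-Aa: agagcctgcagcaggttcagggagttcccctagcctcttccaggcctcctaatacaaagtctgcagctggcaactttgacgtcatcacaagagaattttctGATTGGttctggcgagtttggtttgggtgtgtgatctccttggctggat
H2-Eb1: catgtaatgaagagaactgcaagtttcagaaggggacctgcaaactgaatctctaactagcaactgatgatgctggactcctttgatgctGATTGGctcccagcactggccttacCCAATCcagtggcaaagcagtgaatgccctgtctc
H2-DMb1: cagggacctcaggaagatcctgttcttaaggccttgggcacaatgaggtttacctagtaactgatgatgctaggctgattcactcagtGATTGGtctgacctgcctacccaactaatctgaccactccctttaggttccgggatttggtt
Gbp2: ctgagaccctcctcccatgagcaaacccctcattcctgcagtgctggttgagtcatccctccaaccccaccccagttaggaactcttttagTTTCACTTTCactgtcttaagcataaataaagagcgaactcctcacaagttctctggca
Irf1: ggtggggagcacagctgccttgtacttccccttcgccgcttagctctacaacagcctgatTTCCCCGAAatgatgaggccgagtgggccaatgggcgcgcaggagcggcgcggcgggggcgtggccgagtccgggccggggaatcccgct
The Y box core began 49 bases upstream of the start site in H2-Aa, 62 in H2-DMb1, and 60 and 35 in H2-Eb1, the latter on the opposite strand. The interferon response element of Gbp2 began 59 bases upstream, on the opposite strand, and the GAS element of Irf1 90 bases upstream. In GENCODE the annotated starts of Gbp2 and H2-DMb1 lay further upstream, inside these windows. Of 32851 RefSeq windows of this length, 10.9% held the Y box core, 1.59% the interferon response element and 4.09% the GAS element. Of the class II, class I and interferon genes sought, 19 had a window in the table, and 10, 6 and 3 of these held the respective motif. H2-Ab1, Ciita, Nlrc5, Gbp4 and Iigp1 are named only. A match describes the letters and says nothing of binding in these cells.

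The 7 libraries held 35479306 to 48314458 UMIs, and 5332 to 8556 cells of each were kept. The median depth of kept cells ran from 3039 to 6690 UMIs, deeper in the 3 libraries of the Lama4 experiment (5401 to 6690) than in the 4 of the Lama5 experiment. Lama4, the deleted gene, stood at 46.6 and 45.1 UMIs per 1000000 UMIs (CPM) in endothelial cells of its WT libraries and at 0.055 CPM, a single UMI, in the Lama4-/- library. In microglia outside the class II gate it was at 0 there, which allows up to 0.414 CPM, while WT microglia had 1.34 and 2.16 CPM, and the members hold too few UMIs to show such a level. Libraries shared 5 to 24 cell barcodes over 21 pairs, and 1 member's barcode recurred in a kept cell of another library.

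The members were concentrated in the Lama4-/- library, which held 62 of the 73. They made up 62 of its 1355 microglia, or 4.58% (exact binomial 95% interval 3.53 to 5.83). All intervals here and below cover counting error only. In the WT libraries of the same experiment 0 of 1544 and 2 of 1505 microglia passed. The count of 0 allows a share of up to 0.194%, and the 2 cells made 0.133% (0.0161 to 0.479). With 1 library of Lama4-/- mice there was no test, and the difference from the WT mean was 4.51 percentage points.

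In the Lama5 experiment members were rare in every library. The WT libraries had 1 of 591 microglia (0.169%) and 1 of 549 (0.182%). The Tek-Cre:Lama5-/- libraries had 5 of 1009 (0.496%, interval 0.161 to 1.15) and 2 of 931 (0.215%, 0.0260 to 0.774). The means were 0.355% ± 0.198 against 0.176% ± 0.00915 (SD, n = 2 libraries), a difference of 0.180 percentage points. An exact two-sided permutation test gave p = 0.33, which is the smallest p that 2 against 2 libraries allow. The sign was not stable: with the class II gate at 10 CP10k the difference was -0.255 points, and with cells thinned to 2000 UMIs it was -0.227 points.

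**Figure D1:**
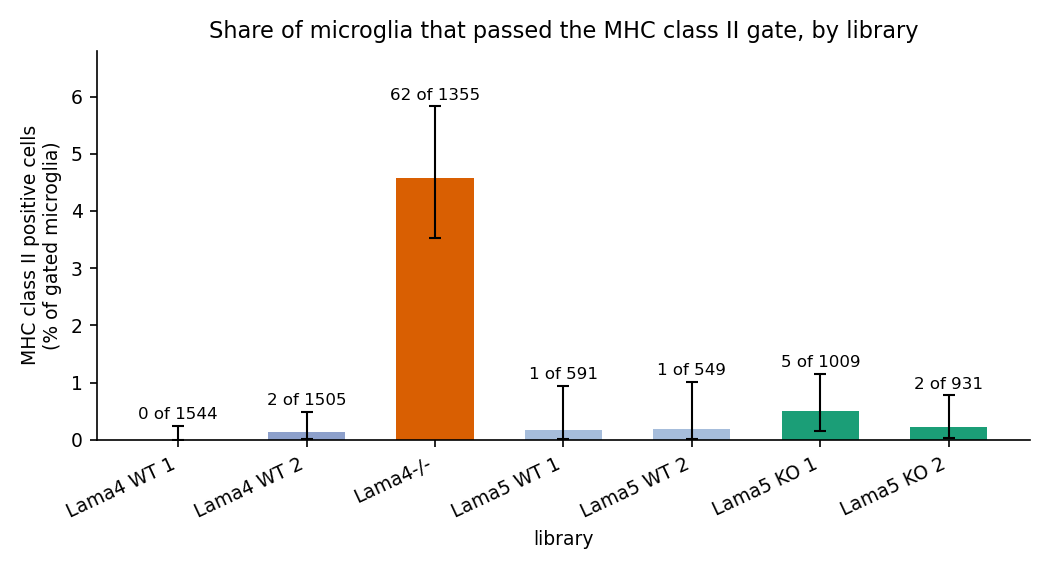
Share of gated microglia that were MHC class II positive in each of the 7 libraries (bars, % of gated microglia, with exact binomial 95% intervals); the counts stand above the bars. The Lama4-/- bar, 62 of 1355, lies above the upper limit of every other library.

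The sum of the 4 class II genes spread over a wide range in the Lama4-/- microglia. Of the 1355 cells, 1096 had no UMI of these genes, 170 had up to 5 CP10k and 27 lay between 5 and 20 CP10k. Just below the gate, from 15 to 20 CP10k, lay 7 cells, and just above it, from 20 to 25 CP10k, lay 5. The members started at 21.9 CP10k, had a median of 92.2 with quartiles of 44.9 and 170, and reached 493. The gate thus cut a continuous range, and 47 members had at least 40 CP10k and 35 at least 80. No microglial cell of the other libraries reached 80 CP10k, and their highest sums were 13.2 and 43.7 in the Lama4 WT, 28.0 and 24.4 in the Lama5 WT, and 45.0 and 27.0 in the Tek-Cre:Lama5-/- libraries. At least 1 class II UMI was common in microglia of every library, at 16.5% to 27.6% of cells. The Lama4-/- library, at 19.1%, lay inside that range.

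**Figure D2:**
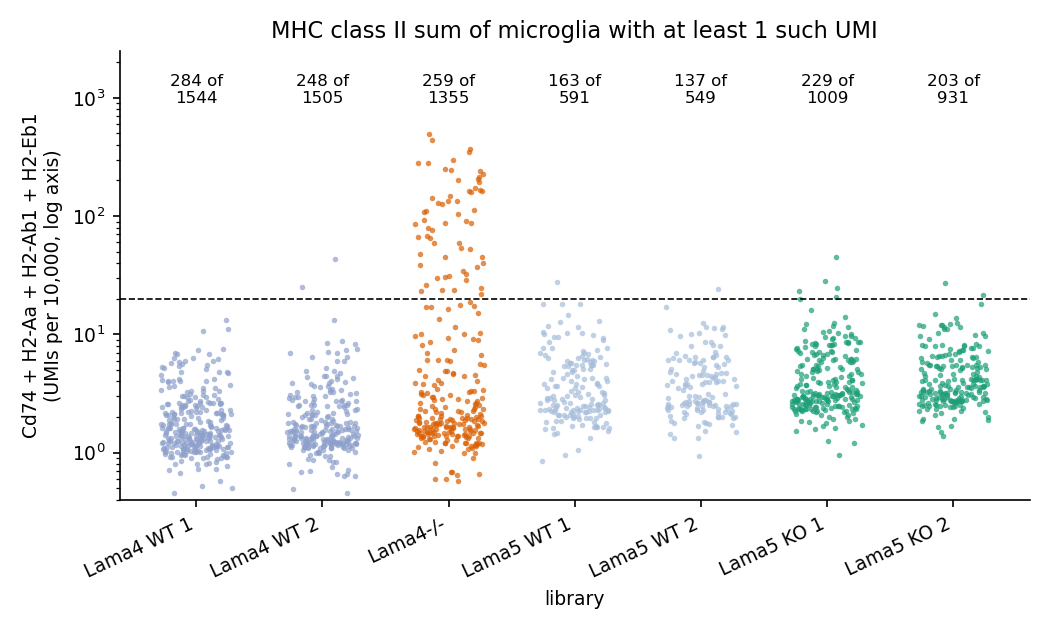
Sum of Cd74, H2-Aa, H2-Ab1 and H2-Eb1 in each microglial cell with at least 1 such UMI (points, UMIs per 10000 on a log axis), by library, with their number of all microglia above. The dashed line is the gate at 20; the Lama4-/- cells reach 493, and the highest cell of any other library is at 45.0.

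The Lama4-/- members carried the class II set as a whole. Cd74 and H2-Ab1 had a UMI in 62 of 62 cells, H2-Eb1, the beta chain of I-E, in 58, and H2-Aa, the alpha chain of I-A, in 55. All 4 genes were present in 52 of the cells, 3 in 9 and only 2 in 1 cell, with a median of 55 class II UMIs a cell. In the summed cells Cd74 stood at 6188 CPM, H2-Aa at 1831, H2-Ab1 at 2585 and H2-Eb1 at 1865 CPM. In the other microglia, which the gate holds under 20 CP10k of these genes, Cd74 stood at 29.6 CPM, beside 32.1 and 26.6 CPM in those of the WT libraries. H2-Aa stood at 3.58 CPM (2.34 to 5.25) in them against 1.51 (0.882 to 2.43) and 1.22, H2-Ab1 at 12.96 (10.5 to 15.9) against 8.37 and 7.24, and H2-Eb1 at 3.86 (2.56 to 5.58) against 0.713 and 0.658. Counting only cells with all 4 genes, the Lama4-/- share was 3.84% (2.88 to 5.0), with 1 such cell in each Tek-Cre:Lama5-/- library and 0 in the 4 WT libraries.

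The 11 members of the other libraries mostly passed on Cd74 alone and at low depth. Of the 11, 8 had UMIs of Cd74 alone among the 4 genes, 8 had under 2000 UMIs in all and 5 passed on 2 class II UMIs. At such depth a lack of H2 UMIs in a single cell cannot decide whether it shares the state of the Lama4-/- members. One Lama4 WT cell of 10068 UMIs held 44 Cd74 UMIs and none of the H2 genes. The 2 cells with all 4 genes had 2221 UMIs with 4 of Cd74, 2 of H2-Aa, 1 of H2-Ab1 and 3 of H2-Eb1, and 6669 UMIs with 14, 1, 1 and 2. Together the 11 cells gave 28168 UMIs, and Ciita and Gbp2 were at 0 in them, which allows up to 107 CPM. That limit lies above the Ciita level of the Lama4-/- members given below, so the 0 for Ciita cannot tell them apart. For Gbp2 it lies below their 482 CPM. H2-Aa and H2-Ab1 stood at 107 CPM each (22.0 to 311) and H2-Eb1 at 178 (57.6 to 414), below the Lama4-/- members. H2-DMa at 320 CPM (146 to 607, 9 UMIs) and H2-D1 at 746 (461 to 1140) lay below their 1074 and 2765 CPM. The H2-K1 interval, 1953 CPM (1471 to 2542), held their 2452 CPM. The cells of 10068 and 6669 UMIs weigh most in these sums. Because 11 cells carry so little depth, the results on genes below describe the 62 Lama4-/- members.

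Those members were microglial by markers the gate did not use. The 10 further microglial markers were all detected and summed to 19600 CPM, against 23834 in the other microglia of the library and 21021 and 21248 in the WT libraries. P2ry12, the purinergic receptor of resting microglia, which the gate did use, stood at 1870 CPM (exact Poisson 95% interval 1740 to 2008) in the members and 2553 in the other microglia, and at 223 CPM in perivascular macrophages of the library. Members were slightly deeper than the other microglia, with medians of 6641.5 against 5791 UMIs and 2199 against 2106 genes a cell. Their median mitochondrial share was 4.52% against 4.18%.

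Markers of other immune cells stayed low in the members. Of 12 perivascular macrophage markers 9 were at 0, and the list summed to 248 CPM against 311 in the other microglia and 280 and 290 in the WT libraries. Dendritic markers summed to 238 CPM (9 of 14 at 0) against 317, 318 and 322. That order came from Fscn1, which resting microglia also express: the other 13 summed to 140.1 CPM against 94.0, 82.8 and 84.2, most of it Naaa (90.9 CPM against 52.4, 38.7 and 42.4, past the size rule described below only against WT) and Batf3 (44.2 against 32.0, 37.2 and 34.5). Monocyte markers summed to 22.1 CPM (6 of 10 at 0) against 22.5, 18.0 and 21.5. B lineage markers summed to 278 CPM (7 of 10 at 0) against 239, 242 and 258. T and NK markers were at 0 for 9 of 10 genes. No member reached 20 CP10k of any of these 5 lists.

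Markers of vessel wall, choroid plexus and blood differed more. Mural markers summed to 870 CPM in the members, 355 in the other microglia and 366 and 444 in the WT libraries, and 1 member, with 218 CP10k of them and 14564 UMIs, was the only member called a doublet (1 of 62, or 1.61%, against 49 of 1293, or 3.79%, of the other microglia). Choroid plexus markers summed to 995 CPM in members and 1500 in the other microglia, but to 151 and 115 in the WT libraries. Astrocyte markers summed to 320 CPM in members and 619 in the other microglia, and erythroid markers to 29.5 and 370. The part of these transcripts in the results on genes was tested only by leaving out the cells that carried most of them.

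Gene levels were compared by a rule of size on summed counts, since only 1 library had 10 or more members. A gene was compared where the members or the other cells reached 20 CPM, the 16 gate genes left out. It passed where the levels differed at least 2-fold (on log2 of CPM + 5) and their exact Poisson intervals did not overlap. Of 6006 genes, 121 passed as higher in the members than in the 1293 other microglia of the library (2.01%) and 109 as lower (1.81%). Of the 121 higher genes, 12 had H2 symbols and 7 were guanylate-binding proteins. How many such genes were compared, or entered only through the members, was not counted, so these are not shares of the families. Since a gene could enter through the members alone, the count was also taken over the 5657 genes at 20 CPM or more in the other microglia: 56 passed as higher (0.99%) and 109 as lower (1.93%), so that 65 of the 121 reached the minimum only in the members. In 25 of the 121 at least 50% of the members' UMIs sat in 1 cell, which for 24 of them was the member called a doublet. With doublets left out 97 genes passed as higher, 93 of them among the 121.

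The machinery that loads class II molecules stood higher along with them. H2-DMa, the alpha chain of the peptide exchange factor H2-DM (chromosome 17, 34119541 to 34139101, GRCm38), stood at 1074 CPM (976 to 1179) in members and had a UMI in 60 of 62. It stood at 225 CPM in the other microglia and at 217 and 215 CPM in the WT libraries, a ratio within the library of 4.78 (4.29 to 5.31). H2-DMb1, its beta chain, stood at 491 CPM in members against 104, 92.2 and 91.9. H2-Oa, of the H2-DM inhibitor H2-O, stood at 174 CPM against 39.6, 40.7 and 40.9, while its partner H2-Ob stood at 34.4 against 18.3 CPM and did not pass.

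Ciita, the class II coactivator (chromosome 16, 10480059 to 10528418), stood far higher in the members. Its level was 81.1 CPM (33 UMIs in 20 of the 62 cells) against 1.52 CPM in the other microglia, a ratio of 53.5 (26.4 to 117). The WT libraries gave 0.18 and 0.28 CPM, from 2 and 3 UMIs. Over the other microglia of all 7 libraries Ciita never exceeded 1.52 CPM. The constitutive regulators Rfx5, Rfxank and Rfxap, the proteases Lgmn and Ctsl, the ubiquitin ligase March1 and the costimulatory genes Cd86 and Icosl did not pass. Cd86 stood at 292 CPM in members and 315 in the other microglia. Of the 18 genes of the class II pathway outside the gate, 17 were in the files, 11 could be compared, and 4 passed as higher (Ciita, H2-DMa, H2-DMb1 and H2-Oa) and 0 as lower. Of the 9 at 20 CPM or more in the other microglia 3 passed, beside 0.99% of the 5657 genes at that level. The median log2 ratio of the 9 was -0.11, beside -0.10 over the 5657 genes.

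Class I genes stood higher across most of their pathway. The list of 20 genes could be compared whole: 15 passed as higher and 0 as lower, with a median log2 ratio of 1.51. Of these genes 2 could be compared only through their level in the members. Of the 18 at 20 CPM or more in the other microglia, 13 passed as higher, with a median log2 ratio of 1.42. Over the 5657 genes at that level 0.99% passed as higher, and the median was -0.10. The classical heavy chain H2-D1 had a UMI in every member and stood at 2765 CPM (2605 to 2931), against 618 in the other microglia and 546 and 532 in the WT libraries, a ratio of 4.47 (4.19 to 4.78). H2-K1, the other classical heavy chain, stood at 2452 CPM against 656, 548 and 558. B2m, their shared light chain, stood at 3256 CPM against 1475 in the other microglia and 1633 and 1532 in the WT libraries, which passed within the library but not against WT. The non-classical H2-T23 (Qa-1) stood at 953 CPM against 218, 190 and 176.

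H2-Q7 stood at 236 CPM in members against 22.7, 24.9 and 27.2, and H2-Q4, H2-Q6 and H2-T22 passed too. The H2-Q and other class I genes are near-identical in sequence, so the division of reads among them is uncertain. Peptide supply stood higher as well. The peptide pump subunit Tap1 stood at 159.7 CPM against 37.2, 26.5 and 26.1, and Tap2, its partner, at 184 against 75.8 CPM in the other microglia. The immunoproteasome subunits Psmb8 (607 against 234 CPM) and Psmb9 (297 against 91.3 CPM) and the proteasome activators Psme1 (487 against 176 CPM) and Psme2 (309.6 against 114 CPM) passed. Nlrc5, the class I coactivator, stood at 51.6 CPM (17 cells) against 2.48 CPM, a ratio of 20.8 (10.6 to 41.4). The chaperones Tapbp, Calr and Pdia3, the trimming protease Erap1 and Psmb10 did not pass.

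Many genes of interferon gamma signalling and response stood higher too. Of 18 listed genes 10 reached 20 CPM in the other microglia, and 6 of these passed as higher and 0 as lower, with a median log2 ratio of 1.58. Over the 5657 genes at that level 0.99% passed as higher, and the median was -0.10. A further 5 could be compared only through their level in the members, which leaves them room to differ only upward. All 5 passed, beside 65 of the 349 genes so compared over all genes. The median over all 18 was 1.66. Gbp2, a guanylate-binding protein that attacks the vacuoles of intracellular parasites (chromosome 3, 142620602 to 142638008), stood at 482 CPM (417 to 554) in members and had a UMI in 48 of 62. The other microglia stood at 13.8 CPM and the WT libraries at 5.79 and 6.39 CPM, a ratio within the library of 34.9 (27.3 to 44.9). No library's other microglia exceeded 13.8 CPM.

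Further guanylate-binding proteins and immunity-related GTPases followed the same order. Gbp3 stood at 106 CPM against 20.1, 12.6 and 15.5, and Gbp7 at 224 against 76.8, 63.5 and 65.6. Gbp4 stood at 71.3 CPM (16 cells) against 1.10 CPM in the other microglia, a ratio of 64.6 (28.8 to 164). Reads of these related genes may be divided imperfectly. Igtp stood at 172 CPM against 33.2, 21.6 and 19.4, and Irgm1 at 143 against 27.2, 23.5 and 24.4. Iigp1 stood at 78.6 against 0.69 CPM, but only 8 cells held its UMIs and 1 of them held 43.8%.

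Irf1, an interferon-induced transcription factor, stood at 514 CPM (39 cells) against 158 in the other microglia and 194 and 196 in the WT libraries, and Cd274, the checkpoint ligand PD-L1, at 34.4 against 7.58 CPM. The receptor and its kinase did not pass: Ifngr1 stood at 644 CPM in members and 809.6 in the other microglia. Irf8 (560.3 against 388 CPM) and Socs1 did not pass either. Among the chemokines of this list Cxcl9 was at 0 in members, and Cxcl10, at 324 against 169.97 CPM, came from 8 cells and did not pass. Among 57 members thinned to 2000 UMIs (5 shallower cells left out), 30 (52.6%) had UMIs of 5 or more of the 18 genes, against 4.96% of the thinned other microglia, 2.56% and 2.90% in the WT libraries and 0.732% to 2.64% in the Lama5 experiment.

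Because members were slightly deeper, shares of cells were also compared at a fixed depth. After the same thinning Gbp2 had a UMI in 54.4% of members (40.7 to 67.6) and 2.48% of the other microglia. Ciita had one in 17.5% (8.75 to 29.9) against 0.0886%, and H2-DMa in 77.2% against 33.3%. Without thinning the shares were 77.4% and 4.80% for Gbp2, 32.3% and 0.773% for Ciita, and 96.8% and 61.1% for H2-DMa. Astrocytes of the library, at a median of 5738 UMIs, gave thinned shares of 1.07% for Gbp2 and 0 of 281 for Ciita and H2-DMa. They were set beside the microglia as a rough measure of free RNA. The share of other microglia with a Gbp2 UMI had an interval (1.65 to 3.56) that overlapped that of astrocytes (0.221 to 3.09). Whether the Gbp2 UMIs of astrocytes were free RNA or their own was not tested, so the overlap does not show where those of the other microglia came from.

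**Figure D3:**
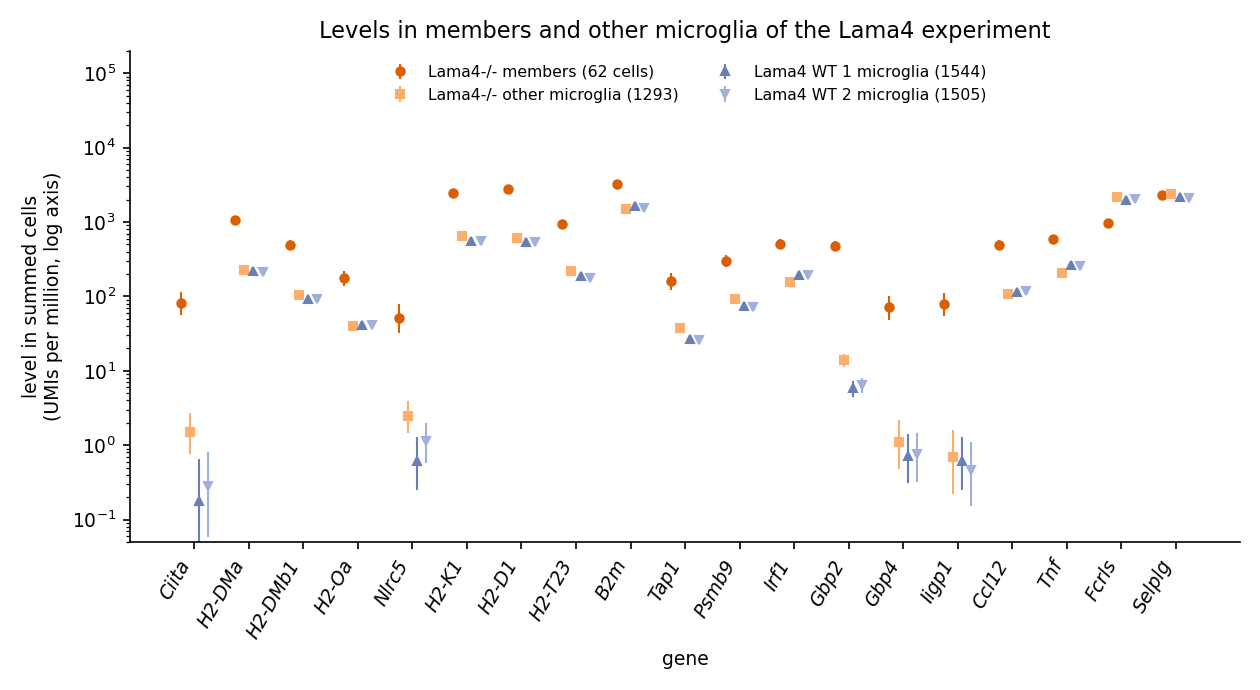
Level of genes named in the text (CPM in summed cells on a log axis, with exact Poisson 95% intervals) in the 62 Lama4-/- members, the 1293 other microglia of that library and the microglia of both Lama4 WT libraries. Members lie above the other 3 for the antigen presentation, interferon and cytokine genes, below them for Fcrls, and near them for Selplg.

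Genes best known for type I interferon stood higher in part. Of 20 listed genes only 4 reached 20 CPM in the other microglia, and 2 of these passed as higher, beside 0.99% of the 5657 genes at that level. Another 8 could be compared only through the members, and 5 of them passed as higher, beside 65 of the 349 genes so compared over all genes. The median log2 ratio over all 20 was 0.78. Bst2, the antiviral tetherin, stood at 516 CPM against 175 in the other microglia and 158 and 158 in the WT libraries. Ifi204, a DNA sensor, stood at 66.3 against 4.96 CPM, Stat2, a transcription factor of the type I response, at 63.9 against 12.7 CPM, and Ifit3 at 31.9 against 9.10 CPM. Ifitm3 (116 against 32.3 CPM) passed with 36.2% of its UMIs in 1 cell, and Rtp4 and Zbp1 passed at low levels. Other standard genes of this response did not: Isg15 stood at 31.9 against 18.1 CPM, Irf7 and Mx1 did not pass, and Ifit1, Rsad2 and Usp18 had no UMI in the members, which allows up to 7.37 CPM for each. Many of these genes respond to both kinds of interferon.

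Cytokines and chemokines gave a mixed picture. Of 15 genes compared of 18 listed, 2 passed as higher and 1 as lower, with a median log2 ratio of 0.25. All 15 reached 20 CPM in the other microglia. Over the 5657 genes at that level 0.99% passed as higher and 1.93% as lower, with a median of -0.10. Ccl12, a monocyte attractant, stood at 494 CPM (32 cells) against 108 in the other microglia and 114 and 118 in the WT libraries. The inflammatory cytokine Tnf stood at 597 CPM (33 cells) against 204, 263 and 255, with a log2 ratio within the library of 1.53 that was 0.73 with cells carrying 2 or more immune marker genes left out. Cxcl2, a neutrophil attractant, stood at 4.91 CPM against 38.9, 70.1 and 59.2. Ccl3 and Ccl4, which microglia also express upon digestion of tissue, stood at 2983 against 2516 CPM and at 6313 against 4585 CPM and did not pass. Of 20 early response genes, which the same digestion induces, 0 passed in either direction. Their median log2 ratio was -0.08, near the -0.10 of the 5657 genes.

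Homeostatic microglial genes stood slightly lower, and 1 passed. Over the 5657 genes at 20 CPM or more in the other microglia 1.93% passed as lower, with a median log2 ratio of -0.10. The median of the 20 homeostatic genes was -0.23, and Fcrls, an Fc receptor-like gene of resting microglia, was the only one past the rule. It stood at 980.5 CPM in members against 2150.0 in the other microglia and 1982 and 2038 in the WT libraries, a ratio of 0.456 (0.412 to 0.504). Gpr34, a lysophosphatidylserine receptor, stood at 1069 CPM against 1584, 1328 and 1337, and P2ry13 at 315 CPM against 460.0, 369 and 357. Sall1, the transcription factor of microglial identity, stood at 135 against 200.2 CPM and Siglech, a sialic acid-binding lectin, at 1155 against 1364 CPM. These did not pass, and neither did Selplg, at 2295 against 2384 CPM.

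Genes of the damage-associated state of microglia were not raised by the rule. Of 22 listed, 21 were in the files, 12 could be compared and 0 passed as higher. Over the 5657 genes at 20 CPM or more in the other microglia 0.99% passed as higher, so 0 of 12 lies near that share. The median log2 ratio of the 12 was -0.04, beside -0.10 over the 5657 genes. Itgax, at 4.91 CPM, Axl and Cst7, at 7.37 CPM each, and Spp1, at 17.2 CPM with 85.7% of its UMIs in 1 cell, stayed low. Apoe, a lipid carrier of that state, passed as lower at 550.4 CPM against 1322 in the other microglia, but the WT libraries stood at 764 and 753 CPM and it did not pass against them. Of 14 proliferation genes only 1 reached the level to be compared, and it did not pass.

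The higher genes named here by the rule (Gbp2, H2-Q7, Ly6a, H2-DMa, Igtp, Irgm1, H2-DMb1, H2-D1, Ccl12, Gbp3, H2-T23, H2-Oa, Tap1 and H2-K1) kept a log2 ratio of at least 1.74 under the 11 alternatives. Of these, Ly6a, a surface antigen of the interferon-responsive Ly6 family, stood at 138 CPM against 24.7, 25.5 and 26.8. The lower genes named by the rule moved more. Hbb-bs, a haemoglobin chain of red cells, stood at 22.1 CPM in members and 266 in the other microglia, but 13 cells held 92.1% of the latter's UMIs. The astrocyte genes Slc1a2 (17.2 against 114 CPM) and Clu (31.9 against 121 CPM) had 70.8% and 68.7% of the other microglia's UMIs in 13 cells. With cells that carried 20 CP10k or more of a non-immune marker list left out, the log2 ratio moved from -3.32 to -0.58 for Hbb-bs, from -2.42 to -0.70 for Slc1a2, from -1.77 to -0.62 for Clu and from -1.26 to -0.85 for Apoe. It stayed beyond -1 for the 6 others named by the rule: the histone gene Hist1h2bc at -1.20, Hmox1, the stress-induced haem oxygenase, at -1.08, the actin bundler Fscn1 at -1.16, Zfp644 at -1.37, Fcrls at -1.13 and Gm13889 at -2.05. With cells carrying 2 or more immune marker genes left out, which kept 33 members, Hmox1 was at -0.45, and with cells thinned to 2000 UMIs Hist1h2bc was at -0.95. Fscn1 stood at 98.3 CPM in members against 223, 236 and 238, and Hmox1 at 199 against 438, 429 and 448. With every cell thinned to 2000 UMIs 58 genes passed as lower, 12 of them among the 109, while 108 passed as higher, 70 of them among the 121.

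**Figure D4:**
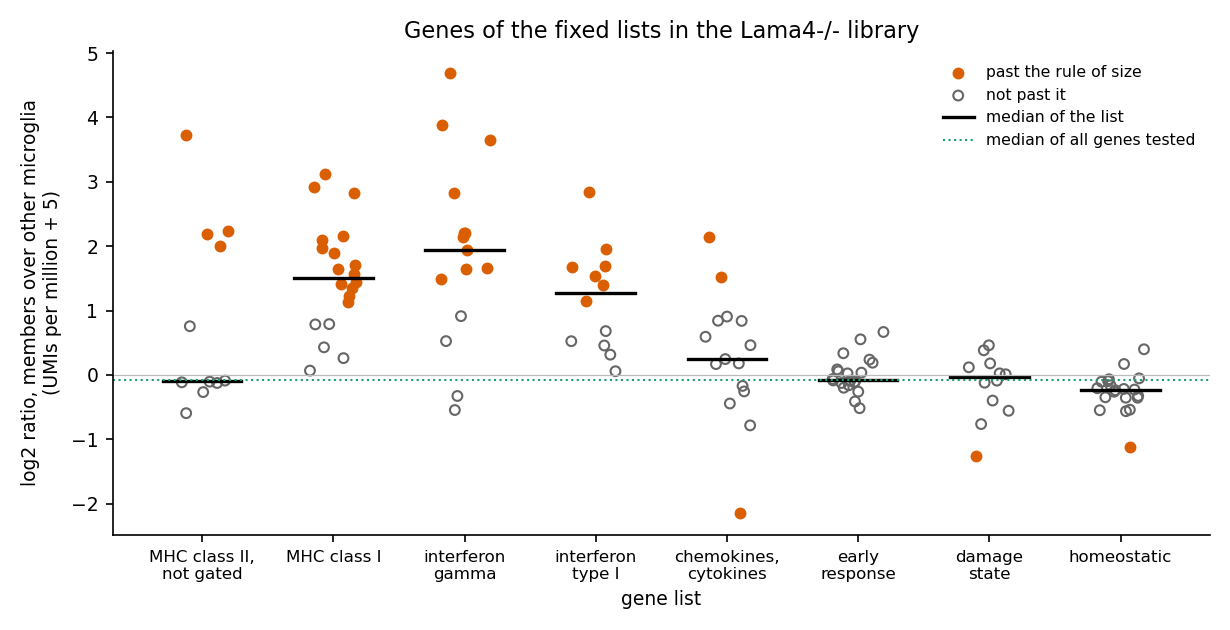
Log2 ratio of members over other microglia of the Lama4-/- library (CPM + 5) for each gene compared of 8 lists (points; filled where past the rule of size), with the median of each list (bar) and of all 6006 genes (dotted line, -0.08). Genes enter at 20 CPM in either arm, so some are shown only through the members. These are 2 genes of the class II list, 2 of the class I list, 5 of the interferon gamma list and 8 of the type I list. The class I list has a median of 1.51 (1.42 without those 2 genes), and the homeostatic list -0.23.

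Within the Lama4-/- microglia gene levels followed the class II sum, including below the gate. Gbp2 stood at 9.60 CPM in the 1096 cells with no class II UMI, 18.2 in the 170 cells with up to 5 CP10k and 158 in the 27 cells from 5 to 20 CP10k. In the members it stood at 311 CPM from 20 to 40 CP10k, 284 from 40 to 80, 535 from 80 to 160 and 728 in the 19 cells at 160 and over. H2-DMa ran from 215 CPM in cells without a class II UMI to 509.9 just below the gate and 1619.7 in the highest members, and H2-D1 from 588 to 1393 and 4413 CPM.

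On the log scale the 27 cells below the gate thus lay nearer to the lower members than to the cells with fewer class II UMIs in these 3 genes. Ciita stood at 50.3 CPM in them, 29.1 and 35.6 CPM in the lower members and 146 and 103 in the upper ones. Fcrls went the other way, from 2185 CPM in cells without a class II UMI to 1501 below the gate, 1319.7 and 1375 in the lower members and 817 and 539.9 in the upper ones. Selplg, the ligand of selectins, stayed between 2145 and 2560.4 CPM over the 7 ranges. Ccl12 was highest in the top range, at 1165 CPM, against 154 to 311 CPM in the other members. It stood at 98.0 CPM in cells without a class II UMI. Irf1 was highest from 20 to 40 CP10k, at 757 CPM. The ranges hold few cells of 1 library and are a description.

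**Figure D5:**
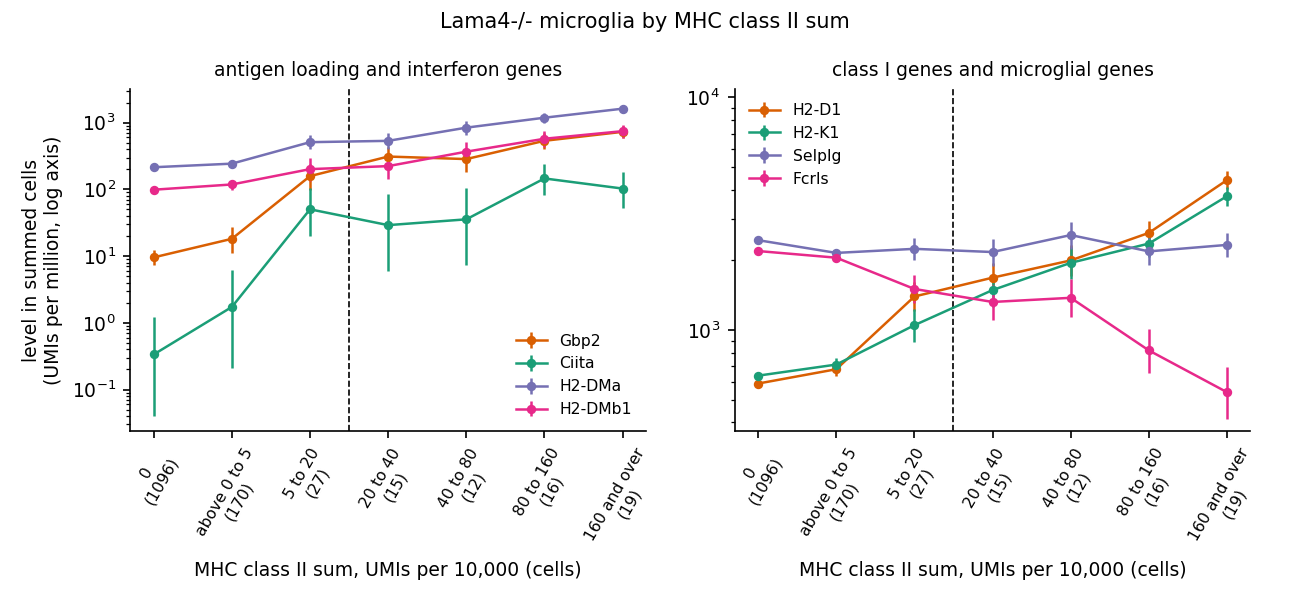
Levels in microglia of the Lama4-/- library grouped by their MHC class II sum (CPM in summed cells on a log axis, with exact Poisson 95% intervals; number of cells in brackets); the dashed line is the gate. Gbp2, Ciita, H2-DMa, H2-DMb1, H2-D1 and H2-K1 are higher in the ranges above 5 CP10k, Fcrls is lower, and Selplg is nearly flat.

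Set against WT microglia the members gave a like number of genes. Of 5946 genes compared with each Lama4 WT library, 118 passed as higher against both (1.98%) and 85 as lower (1.43%). The class I list had 14 of 20 past the rule and a median log2 ratio of 1.62, the interferon gamma list 11 of its 18 genes past it and the type I interferon list 8 of 20, many of which entered through the members. The class II pathway list had 4 of 11, with a median of 0.12. The homeostatic list had 1, Fcrls, and the damage-state list 0. The median over all genes was -0.06. Both comparisons use the same 62 cells and are not independent of each other.

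The microglia of the Lama4-/- library outside the gate differed little from WT by the same rule. Of 5796 genes 10 passed as higher (0.173%) and 3 as lower (0.0518%) against both WT libraries, and 0 genes passed in the lists of class II, class I, interferon, cytokine, early response, homeostatic and damage-state genes. The 10 held genes of choroid plexus and astrocytes, such as Clu (121 CPM against 47.3 and 44.5), Ttr, the choroid plexus thyroxine carrier, at 1478 CPM against 145 and 111, and Aldoc, an astrocyte enzyme, at 96.1 against 38.2 and 39.4 (named after their values were seen). In the interferon gamma list 8 of 10 genes compared had a log2 ratio above 0. Over all genes it was 3441 of 5796, and in the homeostatic list 16 of 20. Igtp, among the 8, stood at 33.2 CPM against 21.6 and 19.4, while Irf1 stood at 158 CPM against 194 and 196. Gbp2, too low to be compared, stood at 13.8 CPM against 5.79 and 6.39. The median log2 ratio was 0.17 for both the class I and the interferon gamma list and 0.03 over all genes.

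Perivascular macrophages, the class II-bearing macrophages next to vessels, were also set beside the members. In the Lama4-/- library 34 of 138 (24.6%, interval 17.7 to 32.7) had at least 20 CP10k of the 4 class II genes. Its WT libraries had 12.4% (7.64 to 18.7) and 11.0% (6.40 to 17.2), so the interval overlapped that of 1 WT library. The range was 1.47% to 5.45% in the Lama5 experiment. Cd74 of the Lama4-/- perivascular macrophages stood at 6174 CPM against 3297 and 2859 in the WT libraries, and H2-Aa at 2445 against 1328 and 995. Gbp2 stood at 32.2 CPM (21.1 to 47.2) against 15.7 (8.81 to 26.0) and 8.10 (3.26 to 16.7), so the interval overlapped that of 1 WT library. Ciita, at 16.1 CPM against 16.8 and 1.16, lay within the range of the WT libraries. In the members, which unlike these macrophages were chosen for class II, Gbp2 stood at 482 CPM.

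T and NK cells, the main source of interferon gamma, were few in every library: 21 in the Lama4-/- library, 21 and 17 in its WT libraries and 10 to 18 in the Lama5 experiment. Ifng, the interferon gamma gene, had 58 UMIs in the Lama4-/- library, 133 and 75 in its WT libraries and 1 to 7 in the others, and 0 in the members. B lineage cells numbered 17 in the Lama4-/- library against 30 and 34. The part of these cells in the results was not tested.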

How the data were processed

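Single-cell suspensions of mouse cortex were profiled on droplets. The deposited matrices hold raw UMI counts per gene and barcode, not normalised, and per the file headers they were written by software version 3.1.0. The submitters' processing notes name Cell Ranger, Seurat 3.1 and the build mm10. Aligner settings and the calling of cells are not given in the sources used here. No text says that doublets were removed. Of 31053 gene IDs, 30934 (99.6%) matched GENCODE M21 on GRCm38, which gave the coordinates (1-based).

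Cells were kept and gated as the report states. Neighbour-based doublet scores (0.8% per 1000 cells, 50 neighbours, 30 components of 2000 genes) were used only as an alternative. Counts were summed over cells and divided by the summed UMIs, with no further scaling. Levels carry exact Poisson and shares exact binomial (Clopper-Pearson) 95% intervals, ratios an exact conditional interval, and a count of 0 a floor of 3 counts. Droplet UMIs are counted molecules of single cells, and the intervals leave out differences between animals.

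The planned tests across libraries were set to use libraries with at least 10 members, which only 1 was, and were not run, so a rule of size replaced them: 20 CPM in either arm, a log2 ratio of 1 (pseudocount 5 CPM) and intervals apart. It was tried on simulated Poisson counts. These hold no spread between cells, so they do not show how the rule acts on genes with most UMIs in 1 cell. Named genes were the 15 higher and 10 lower genes past that rule with the largest ratios at 100 CPM or more, plus genes of fixed lists; some genes are not reported here. The members, lists and rules were chosen with earlier results of these data known. Alternatives, most of them chosen after seeing the data, covered the gate, thinning, doublets, cells with other markers, scaling and minimum level. No label says that a replicate number marks a shared animal or batch. Tools were Python 3.11.15 (numpy 2.4.6, scipy 1.17.1, pandas 2.3.3, scikit-learn 1.9.0, matplotlib 3.10.9) and R 4.3.3 with edgeR 4.0.16, used only for TMM and RLE factors.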

Additional observations from a re-analysis of the deposited data

How the results depend on the processing

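The share of members in the Lama4-/- library exceeded the WT mean under every alternative run. The difference of 4.51 percentage points was 3.44 with the class II gate at 40 CP10k and 1.14 with all kept cells as the denominator, and 4.44 to 4.58 when either WT library was left out. In the Lama5 experiment the difference of 0.180 points was -0.255 with the gate at 10 CP10k and -0.227 with cells thinned to 2000 UMIs, and 0.0391 to 0.320 when 1 library was left out; the cause was not tested. Taking the replicate number as a block gave 0.180 points (exact sign permutation p = 0.5, the smallest that 2 pairs allow). For genes, the planned edgeR fits were limited to libraries with 10 or more members, which left 1 library, and were not run. The plan also held a rule of size at 50 CPM for members of Lama4-/- against WT, where the rule used here took 20 CPM. Within the Lama4-/- library, raising the minimum to 50 CPM, which leaves fewer genes to compare, gave 73 higher and 40 lower genes against the other microglia, and 68 and 29 against WT. Thinning left 58 lower genes against the other microglia. Leaving out either WT library gave 130 to 145 higher and 106 to 112 lower genes against WT. Of 484 log2 ratios of 44 named genes under 11 alternatives chosen after seeing the data, 409 stayed inside the counting interval of the reported ratio, 69 moved and 6 changed sign. The sign changes were all in 3 genes with most of their UMIs in the member called a doublet, whose ratios were 1.27 (Acta2), 1.70 (Tagln) and 1.73 (Crip1): Acta2 went to -0.51 without doublets, -1.22 without cells carrying 2 or more immune marker genes and -0.58 without cells carrying other non-immune markers, Tagln to -1.43 and -0.56 under the latter 2, and Crip1 to -0.42 under the first of these. The immune marker filter kept only 33 members, since microglia express some of its genes. Depth limits the 11 members of the other libraries, whose 28168 UMIs allow up to 107 CPM for a gene at 0, and 1 library from 3 pooled mice limits what the Lama4-/- result covers.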

Other observations

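Some of the widest differences of the Lama4-/- members lay in genes outside the lists. These genes were chosen after their values were seen. C4b, a complement component, stood at 81.1 CPM in the members, 3.03 in the other microglia and 1.07 and 0.66 in the WT libraries. Il18bp, the secreted inhibitor of interleukin 18, stood at 63.9 CPM against 4.14, 1.87 and 2.35. Fgl2, a fibrinogen-like protein of activated macrophages, stood at 98.3 CPM against 9.79, 5.17 and 6.48. Samhd1, a restriction factor that depletes nucleotides, stood at 184 CPM against 57.9, 48.5 and 49.3. Fcgr4, an activating Fc receptor, stood at 68.8 CPM against 11.3, 12.1 and 10.3, and Tspo, the mitochondrial protein used as an imaging marker of neuroinflammation, at 283 against 112, 95.2 and 99.7. In each of these 6 genes the members' interval lay above those of the other microglia and of both WT libraries. As the genes were chosen for such differences, this adds no support. C4b, Il18bp, Fgl2 and Fcgr4 were under 20 CPM in the other microglia, so they were compared only through the members and could differ only upward. Over the alternatives the log2 ratio to the other microglia ran from 3.42 to 4.35 for C4b, 2.57 to 3.66 for Il18bp and 2.80 to 3.26 for Fgl2.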
